A study of Homo sapiens with 4 samples.

Results

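U-2 OS cells in the G2/M range of the cell cycle were compared between untreated cultures and cultures exposed to ionizing radiation. The cells were chosen by their own transcripts. An M score summed 10 mitotic genes per cell (CDK1, CCNB1, TOP2A, CENPF, MKI67, TPX2, UBE2C, PLK1, AURKA and KIF11) and an S score summed 10 replication genes (MCM2, MCM4, MCM5, MCM6, PCNA, TYMS, RRM2, CDC6, GINS2 and UHRF1), both as counts per 10000 counts of the cell. Cells with an M score at or above the 70th percentile of all 1220 cells (25.2 per 10000) and an S score under its own 70th percentile (23.6 per 10000) were taken as members. The rule gave 219 cells of 1220, of which 163 were untreated and 56 irradiated.

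A cell in G2 has copied its DNA, and it enters mitosis once cyclin B and its kinase CDK1 are switched on. Damaged DNA holds this switch back through the checkpoint kinases CHEK1 and CHEK2 and through p53, which raises CDKN1A, the gene of the cyclin-dependent kinase inhibitor p21. p21 also keeps the RB family in its repressive form, under which genes of replication and mitosis are transcribed less, and cells with lasting p21 can leave the cycle from G2.

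U-2 OS, a human osteosarcoma line in long use, keeps a wild-type p53 gene. Untreated (UT) cultures and cultures given 4 Gy of radiation (IR) were sorted singly into plates and sequenced by SORT-seq, in which a primer labels the 3′ end of polyadenylated RNA with its well's barcode and with a random tag per molecule (a unique molecular identifier, UMI). Each of 2 experiments gave 1 library per group, and UT and IR cells were of the same line with no other treatment named. The labels give 48 h in the design text and 24 h in the treatment protocol as the time from irradiation, and the study's methods give the former. The sources used here do not give the gate by which cells of these libraries were sorted.

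The members held 1520955 and 1437284 summed counts in UT experiments 1 and 2, and 692861 and 882916 in IR experiments 1 and 2. Libraries are always listed in this order in what follows. The median member held 16091, 18147, 24145 and 25727 counts, and 5395, 5733, 6460 and 6886 genes, so IR members were the deeper ones. No gene exceeded 138 counts in any cell of any library, and the 156 genes whose mean reached 20 per cell in some library are described as near this count ceiling. The ceiling is the largest value seen, and whether counts saturate below it was not tested. Cell barcodes name wells of a plate, and 161 of 376 were used in all 4 libraries, each time for another cell. No doublet caller was run, since wells were filled 1 cell at a time. No UT member held over 3 times the median total of its library, while 1 IR member of experiment 1 and 3 of experiment 2 did, with 101583 counts in the largest.

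Members made up 24.3% of UT cells in experiment 1 (87 of 358, exact 95% binomial interval 19.9 to 29.1) and 20.7% in experiment 2 (76 of 367, 16.7 to 25.2). They made up 10.9% of IR cells in experiment 1 (27 of 247, 7.33 to 15.5) and 11.7% in experiment 2 (29 of 248, 7.97 to 16.4). Both IR shares lay below both UT shares. The shares follow from the scores that chose the members, so they are a description with no test, and the intervals cover counting error only. The last cells inside the M threshold scored 25.2, 25.3 and 25.5 per 10000 and the first outside scored 25.2, 25.1 and 25.01, and 19 members lay within 10% of it. Within the members the median M score was 40.6 and 41.6 per 10000 in UT and 34.8 and 36.2 in IR. IR members thus sat lower in the chosen range.

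**Figure D1:**
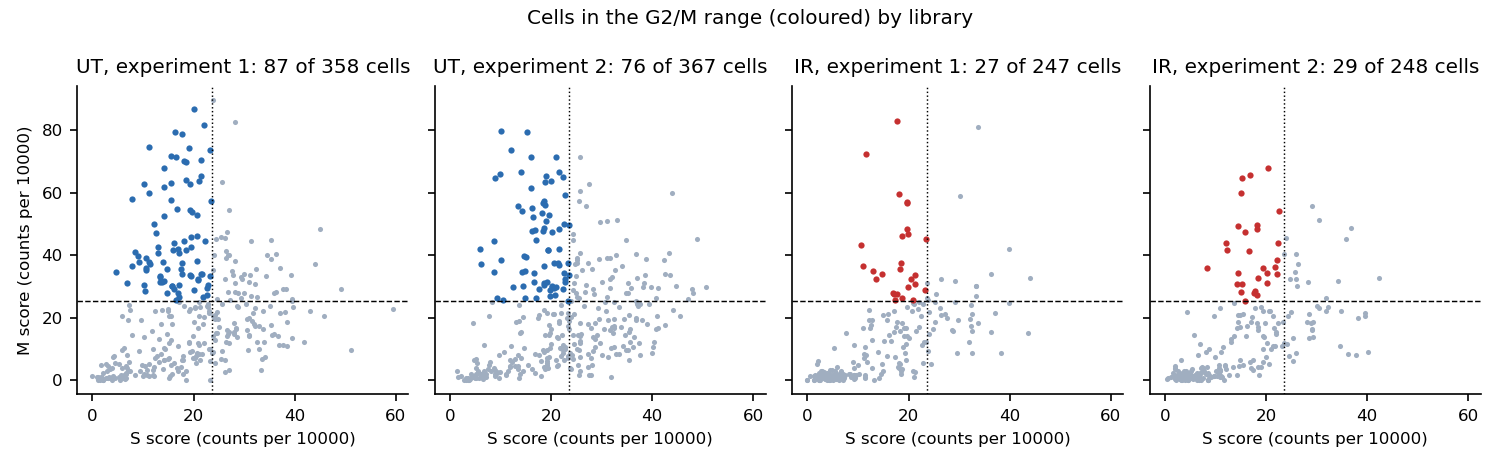
M score against S score of each cell, both in counts per 10000, with 1 panel per library, dashed and dotted lines at the thresholds and members coloured. The coloured quadrant holds 87 of 358 and 76 of 367 UT cells and 27 of 247 and 29 of 248 IR cells.

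The label of the class was read against mitotic genes outside both scores, in counts per 1000000 (CPM) of the summed cells. The comparison class, named low-cycle here, had both scores under their 70th percentiles and held 148, 134, 177 and 176 cells. CCNB2, the second B-type cyclin, stood at 329, 508, 321 and 460 CPM in members and at 102, 144, 79.4 and 105 CPM in low-cycle cells. ASPM, a spindle pole protein, stood at 355, 416, 273 and 258 CPM against 40.9, 38.4, 43.1 and 46.7, and BUB1, a spindle checkpoint kinase, at 176, 218, 181 and 189 CPM against 39.1, 44.5, 29.8 and 39.9. CDC20, HMMR, NUSAP1, AURKB and KIF23 were likewise higher in members than in low-cycle cells of every library. Low-cycle cells of the IR libraries had a median M score of 1.86 and 2.41 per 10000, against 6.48 and 5.74 in UT. Among 12 markers of blood, endothelial and epithelial cells, HBB, HBA1, LYZ and KRT5 had no count in any member, and the 12 together summed to 12.5 and 22.3 CPM in UT and 12.99 and 34.0 in IR members.

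Promoters of genes that mark the class and of replication genes described later carried different short motifs. Windows of 300 bases, from 250 before to 50 after the gene's start, came from RefSeq (GRCh38.p14). They were searched on both strands for TTTGAA, the core of the cell cycle gene homology region found in late cell cycle genes, and for the E2F-type sites TTTCCCGC, TTTGGCGC and TTTCGCGC. The motifs were counted separately, and matches to different motifs may share bases. TTTGAA was in 15.4% of all 27305 promoters and in 6 of 7 M score genes that had a window (TPX2, UBE2C and AURKA had none). It was in 20 of 31 mitotic kinesin and spindle genes, 17 of 29 kinetochore genes, 1 of 39 replication genes outside the S score and 1 of 40 p53 targets. An E2F-type site was in 2.79% of all promoters, in 7 of 8 S score genes with a window (MCM4 and MCM5 had none) and in 14 of the 39 replication genes. A match is a description of these letters and not evidence of binding.

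PLK1 and CCNB2 are shown because they mark the class, PLK1 inside and CCNB2 outside the rule. MCM3 and E2F1 are shown because their response to IR differed between members and low-cycle cells. Capitals mark the motif, and all are written 5′ to 3′ along the gene's strand. The windows are chr16:23678639-23678938 on the plus strand for PLK1, chr15:59104896-59105195 on the plus strand for CCNB2, chr6:52284693-52284992 on the minus strand for MCM3 and chr20:33686336-33686635 on the minus strand for E2F1. TTTGAA begins 29 bases before the start in both PLK1 and CCNB2, while the E2F-type sites begin 174 and 4 bases before the start of MCM3 and 20 before that of E2F1.
PLK1: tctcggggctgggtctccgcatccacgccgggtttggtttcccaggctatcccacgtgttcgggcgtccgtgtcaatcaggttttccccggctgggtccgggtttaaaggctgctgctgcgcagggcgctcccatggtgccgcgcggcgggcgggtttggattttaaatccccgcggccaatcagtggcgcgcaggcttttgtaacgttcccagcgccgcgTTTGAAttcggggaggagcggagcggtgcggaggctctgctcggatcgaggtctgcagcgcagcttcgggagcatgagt
CCNB2: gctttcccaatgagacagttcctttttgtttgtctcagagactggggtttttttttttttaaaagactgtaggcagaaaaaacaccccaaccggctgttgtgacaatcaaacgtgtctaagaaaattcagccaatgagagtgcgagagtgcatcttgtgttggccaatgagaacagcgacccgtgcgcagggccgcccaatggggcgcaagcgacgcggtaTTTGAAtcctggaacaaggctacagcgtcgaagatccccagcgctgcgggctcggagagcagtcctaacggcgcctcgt
MCM3: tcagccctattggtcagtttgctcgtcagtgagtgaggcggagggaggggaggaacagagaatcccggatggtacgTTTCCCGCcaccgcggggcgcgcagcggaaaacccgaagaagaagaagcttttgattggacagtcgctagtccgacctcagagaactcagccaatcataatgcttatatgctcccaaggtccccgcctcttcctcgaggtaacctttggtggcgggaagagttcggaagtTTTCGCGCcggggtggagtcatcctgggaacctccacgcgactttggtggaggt
E2F1: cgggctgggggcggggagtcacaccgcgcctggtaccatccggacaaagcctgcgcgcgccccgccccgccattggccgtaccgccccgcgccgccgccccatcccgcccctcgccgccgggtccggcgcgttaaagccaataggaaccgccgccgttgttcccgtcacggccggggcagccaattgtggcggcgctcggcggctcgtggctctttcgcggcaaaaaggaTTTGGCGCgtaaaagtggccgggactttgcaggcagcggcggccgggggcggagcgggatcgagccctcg

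The main comparison asked how G2/M range cells that remained after irradiation differed from G2/M range cells of untreated cultures. Counts of the members were summed per library and the 2 IR sums were tested against the 2 UT sums with edgeR's quasi-likelihood test, over 10745 genes and with Benjamini-Hochberg adjustment. In members, 24 genes were higher after IR (0.223% of those tested) and 13 were lower (0.121%) at an adjusted p under 0.05. Of the higher genes 7 were listed p53 targets, and of the lower ones 8 were mitochondrially encoded transcripts. With the experiment as a block 436 genes were higher (4.06%) and 286 lower (2.66%), among them all 24 and 13 of the fit without it. That fit leaves 1 residual degree of freedom against 2, and the labels' experiment numbers pair the libraries. Fewer cells with a transcript and less of it per cell cannot be told apart in such sums.

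CDKN1A (chr6:36676460-36687337 in GRCh38), which encodes p21, was at 198 and 125 CPM in UT members and at 639 and 572 CPM in IR members. Both IR libraries lay far above both UT libraries. The fold was 3.74 (log2 1.90 ± 0.25 SE, n = 2 libraries per group, adjusted p = 0.0161 in edgeR). CDKN1A is among the genes near the count ceiling. MDM2 (chr12:68808177-68845544), the ubiquitin ligase that degrades p53 and is itself a p53 target, was at 72.8, 79.9, 214 and 241 CPM. It rose 2.98-fold (log2 1.57 ± 0.20, edgeR adjusted p = 0.0161). GDF15 (chr19:18374731-18389176), a secreted stress cytokine, was at 4.90, 8.72, 60.6 and 100.6 CPM, with no overlap between the groups. Its fold was 11.8 (log2 3.57 ± 0.40, edgeR adjusted p = 0.00977), but single cells held 26.2% and 56.7% of its counts in the IR sums of members.

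RRM2B, the p53-induced subunit of ribonucleotide reductase, was at 67.2, 71.2, 192 and 207 CPM and rose 2.88-fold (edgeR adjusted p = 0.0171). FAS (chr10:88953813-89029605), a death receptor, was at 15.4, 22.5, 73.6 and 71.1 CPM and rose 3.80-fold (log2 1.93 ± 0.29, edgeR adjusted p = 0.0308). GADD45A, which binds and inhibits the CDK1 and cyclin B complex, was at 74.9, 51.6, 228 and 164 CPM and rose 3.08-fold (log2 1.62 ± 0.26, edgeR adjusted p = 0.0372). In none of these genes did the groups overlap. For genes called from the same sums, here and elsewhere, such separation is a description and adds no support to the call. TIGAR, a regulator of sugar metabolism, completed the called p53 targets at 91.0, 76.3, 186 and 206 CPM (log2 1.23, edgeR adjusted p = 0.0445). It was named for its call after its value was seen. Without UT experiment 2 its adjusted p was 0.0600, and 5 other settings ended the call too (0.0670 to 0.189). ZMAT3, an RNA-binding p53 target, was at 86.8, 63.2, 193 and 152 CPM, and its log2 difference of 1.19 ± 0.24 did not pass (edgeR adjusted p = 0.0760). It passed with the experiment as a block (5.1e-05), without IR experiment 2 (0.0176) and without UT experiment 1 (0.00371).

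Of the 51 p53 targets listed, 46 passed the filter on low counts, 7 rose and none fell. Their median log2 difference was 1.02, while the median over all genes tested was -0.003. IR was higher in both experiments for 42 of the 46 (91.3%) and for 31.2% of all genes tested, and TNFRSF6B was the only one lower in both. With the block 25 rose and none fell, and 33 were higher at an unadjusted p under 0.05. Over all genes tested, 6.73% were higher and 4.28% lower at that unadjusted threshold, against which the unadjusted counts of every list are to be read. Part of this list was known from earlier results of these data to respond, so its direction is not independent evidence.

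**Figure D2:**
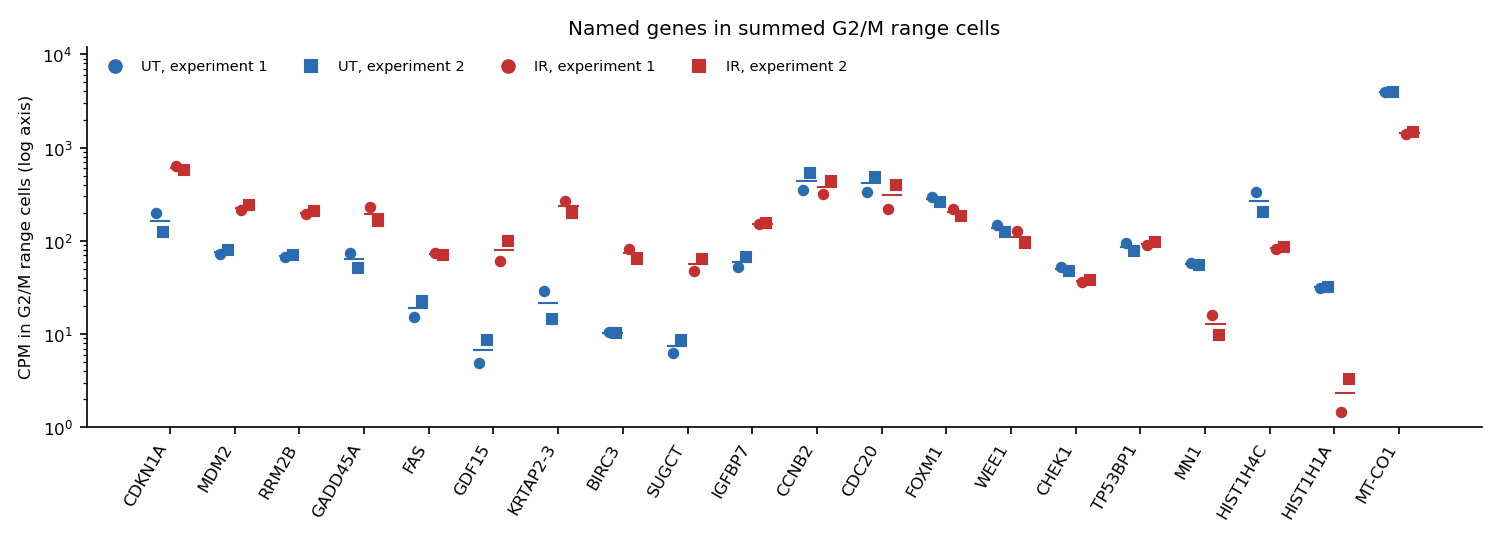
Levels of 20 of the named genes in summed G2/M range cells in CPM on a log axis, with 1 symbol per library (UT and IR in experiments 1 and 2) and short lines at the group means. Both IR symbols stand above both UT symbols for CDKN1A, MDM2 and GDF15 and below them for MT-CO1 and HIST1H4C, while the symbols of CCNB2 and TP53BP1 overlap.

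The rise of CDKN1A was spread over the members rather than held by a few. It was detected in 67.8% and 64.5% of UT members and in 100% and 96.6% of IR members. After thinning each cell to 8000 UMIs, which left out 11 of 219 members, it was found in 55.4% and 42.5% of UT and in 92% and 88.9% of IR members. The highest single cell held 12.97% and 15.5% of the CDKN1A counts of IR members. The median per cell was 0.644 and 0.591 per 10000 in UT and 4.63 and 4.79 in IR. Thinned shares were also higher in IR for MDM2, from 28.9% and 41.1% to 72.0% and 77.8%, and for FAS, from 7.23% and 15.1% to 40.0% and 40.7%.

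IR members nevertheless held less CDKN1A than the low-cycle cells of the same libraries, whose medians were 9.57 and 9.48 per 10000. Of IR members, 25.9% and 17.2% reached the pooled median of IR low-cycle cells (9.51 per 10000), against 3.45% and 1.32% of UT members. The pooled median of UT low-cycle cells (2.26 per 10000) was reached by 77.8% and 75.9% of IR members and by 20.7% and 15.8% of UT members. In members of both groups CDKN1A was lowest where the M score was highest. In IR members with M scores from 48.2 to 86.8 per 10000 it stood at 466 and 247 CPM (6 and 8 cells), compared with 638 and 758 CPM between 25.2 and 34.1 (13 and 9 cells) and 738 and 604 CPM between these ranges (8 and 12 cells). In UT members it stood at 102 and 97.6 CPM in the highest range, at 204 and 101 CPM in the lowest and at 262 and 177 CPM between them. Spearman's rho of CDKN1A with the M score over cells was -0.19 and -0.47 in IR members (27 and 29 cells) and -0.05 and -0.06 in UT members (87 and 76 cells). These values share the cell total as denominator and are given with no test.

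**Figure D3:**
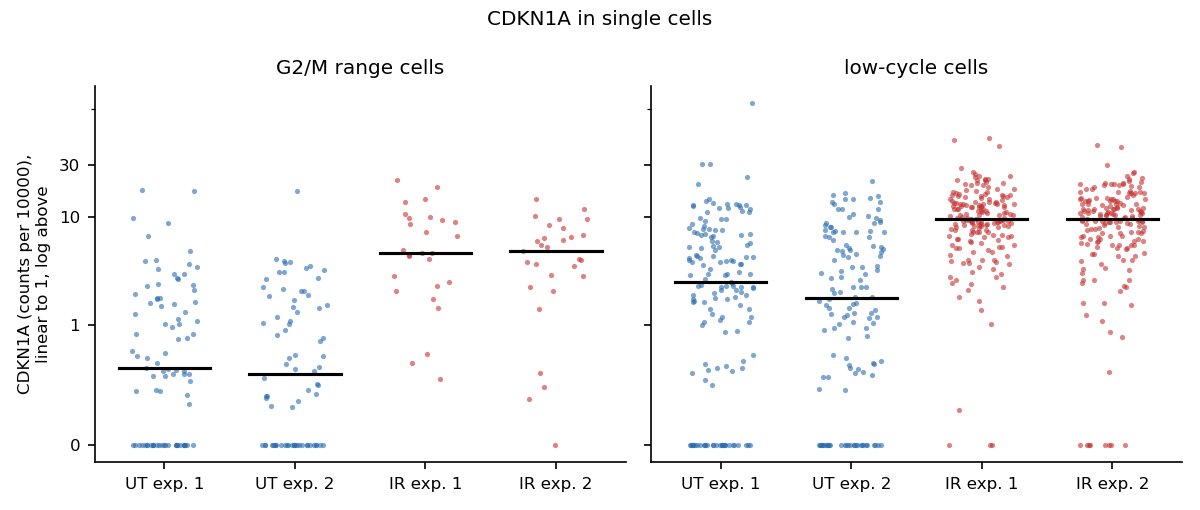
CDKN1A per cell in counts per 10000, on an axis that is linear to 1 and logarithmic above, for members and low-cycle cells of each library, with points for cells and lines for medians. Medians of members are 0.644 and 0.591 in UT and 4.63 and 4.79 in IR, below the IR low-cycle medians of 9.57 and 9.48.

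Outside the p53 list, the largest rises belonged to a mixed set of genes. Of those given with values here, only BIRC3 was called in the test against low-cycle cells described later. In low-cycle cells the log2 effect of IR was 2.68 for KRTAP2-3 and SUGCT, 2.35 for CFAP58 and 1.33 for RGS4. It was 1.07 for SEMA7A, 0.73 for SNAI2 and -0.67 for BIRC3. KRTAP2-3 (chr17:41059240-41060114), a hair keratin-associated protein gene, was at 28.7 and 14.5 CPM in UT and at 270 and 198 CPM in IR members, a fold of 10.7 (log2 3.42 ± 0.32, edgeR adjusted p = 0.00813). Single cells held 32.9% and 49.7% of its IR counts, near-identical family members make its assignment uncertain, and with membership from thinned cells its adjusted p was 0.334. BIRC3 (chr11:102317484-102339403), an inhibitor of apoptosis induced by NF-kB, was at 10.5, 10.2, 82.2 and 64.5 CPM (log2 2.80 ± 0.31, edgeR adjusted p = 0.00977). Only 9 members in each IR library had a BIRC3 count, and the highest held 66.8% and 56.0%. With the highest cells of each gene left out, an alternative added after the data were seen, its adjusted p was 0.0644.

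SUGCT, a mitochondrial CoA-transferase, was at 6.30, 8.72, 47.6 and 64.5 CPM (7.45-fold, edgeR adjusted p = 0.0155), and CFAP58, a cilia and flagella protein, at 11.9, 16.7, 66.4 and 96.2 CPM (5.71-fold, edgeR adjusted p = 0.0161). RGS4, a regulator of G protein signalling, was at 10.5, 3.63, 40.4 and 43.7 CPM (5.85-fold, edgeR adjusted p = 0.0445). For all of them the IR libraries stood apart from the UT libraries. SNAI2, a transcription factor of the Snail family, rose 4.36-fold from 16.8 and 9.45 to 57.7 and 58.0 CPM (edgeR adjusted p = 0.0342). SEMA7A, a membrane-anchored semaphorin, rose 3.80-fold from 18.9 and 21.1 to 64.9 and 86.4 CPM (edgeR adjusted p = 0.0279). With UT cells matched on M, as described next, SUGCT (0.0663), CFAP58 (0.0984), RGS4 (0.0778), SNAI2 (0.101) and SEMA7A (0.0847) missed the threshold. With equal cells per library SUGCT (0.0544), RGS4 (0.130), SNAI2 (0.0599) and SEMA7A (0.0762) missed it, and with membership from thinned cells RGS4 (0.119), SNAI2 (0.160) and SEMA7A (0.0867) did. RGS4 also missed it with the highest cells left out (0.0888), and SEMA7A at the 80th percentile of M (0.0619). LINC00520, LINC02055, SP140, ZNF114, IL7R, TINAGL1, FHL2 and CD44 also rose and completed the 24 with IGFBP7 and ITGA2, described with their lists. They were named after their values were seen.

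UT cells with the M scores of IR members gave a comparison at matched M scores, another alternative added after the data were seen. For each IR member the UT member of the same experiment nearest in M was taken, which left 27 and 29 cells per group. Under it 8 genes rose and 14 fell, with 5 of the 24 and all 13 of the main comparison among them. MDM2 (log2 1.31, edgeR adjusted p = 0.0496) and GDF15 (2.55, 0.0354) kept their calls. CDKN1A (1.23, 0.0847), RRM2B (1.20, 0.0690), GADD45A (1.13, 0.131) and FAS (1.49, 0.0984) stayed higher without passing. With equal numbers of cells per library, drawn once without regard to M, CDKN1A (0.322), GADD45A (0.164), TIGAR (0.145), FAS (0.0886) and MDM2 (0.0805) missed the threshold, and RRM2B and GDF15 did not.

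Of the 13 genes that fell, 8 are encoded by the mitochondrial genome. MT-CO3, a subunit of cytochrome c oxidase, was at 3515 and 3111 CPM in UT and at 994 and 804 CPM in IR members (log2 -1.88 ± 0.21, edgeR adjusted p = 0.00977). MT-CO1, another subunit, was at 3940, 3968, 1408 and 1470 CPM (-1.46 ± 0.19, 0.0161). MT-ND1 (-1.81), MT-ND4 (-1.82), MT-CYB (-1.66), MT-ND2 (-1.47), MT-ATP6 (-1.50) and MT-CO2 (-1.38) fell alongside, and without IR experiment 1 the last 2 missed the threshold at 0.0669 and 0.0570. With membership from thinned cells MT-ATP6 (0.0817), MT-ND4 and MT-CYB (0.0588 each) and MT-CO2 (0.0505) missed it, and MT-ATP6 also did at the 80th percentile of M (0.10) and with the highest cells left out (0.0553). All 8 lie near the count ceiling. In UT members the mean per cell was 64.7 and 71.9 for MT-CO1 and 57.7 and 56.3 for MT-CO3, against 36.2 and 46.3, and 25.5 and 25.4, in IR members. The part of the ceiling in these falls was not tested. None of the 8 was called in the test against low-cycle cells, where UT and IR means of MT-CO3 were 63.3 and 61.6 against 32.0 and 33.2 per cell.

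The others that fell were 2 histone genes of the replication-dependent class, the linker histone H1F0, the nuclear envelope protein gene SYNE2 and MN1, a transcriptional co-regulator. HIST1H4C (H4C3 in current annotation, chr6:26103933-26104337) was at 338, 203, 80.8 and 86.4 CPM (log2 -1.69 ± 0.27, edgeR adjusted p = 0.0375). HIST1H1A (H1-1, chr6:26017032-26017787) had 45, 44, 1 and 3 counts, a UT to IR ratio of 11.9 with a counting interval of 4.47 to 44.4 (edgeR adjusted p = 0.0199). Both are higher in every UT library than in any IR library. MN1 (chr22:27748277-27801756) was at 57.4, 54.5, 15.9 and 9.84 CPM (log2 -2.15 ± 0.34, edgeR adjusted p = 0.0342). Its log2 effect in low-cycle cells was -1.97. With the highest cells left out HIST1H4C (0.0502) and HIST1H1A (0.0682) missed the threshold, as they did with membership from thinned cells (0.139 and 0.0807), HIST1H1A with equal cells (0.104) and MN1 at the 80th percentile of M (0.0872). Histone messages of this class mostly lack a poly(A) tail and gene copies share sequence, so their counts are uncertain. Of the 11 replication-dependent histone genes tested, 2 fell and none rose (3 and 0 with the block), with a median log2 difference of -0.44. BMF, a pro-apoptotic BH3-only gene, had 31 and 17 counts in UT and none in IR members, which is at least 4.17-fold lower at a floor of 3 counts per library. It missed the threshold (edgeR adjusted p = 0.0574) and passed with the block (0.000327) and when either IR library or UT experiment 2 was left out.

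Of the genes of mitotic entry and progression listed, none outside the score was called in either direction by edgeR without the replicate block. Since the M score chose the members, the 10 score genes are a description. CCNB1, cyclin B1, was at 562, 511, 499 and 478 CPM and PLK1, the polo-like kinase, at 459, 395, 385 and 283 CPM. CENPF was at 1095, 935, 695 and 630 CPM and MKI67 at 756, 623, 517 and 339 CPM, both lower in each IR library than in each UT library. CDK1, the kinase of mitotic entry, was at 305, 304, 372 and 327 CPM, higher in each IR library than in each UT library, and UBE2C, which works with the anaphase-promoting complex, was at 287, 403, 326 and 443 CPM. These 2 of the 10 were higher in both experiments and 7 were lower in both. The median log2 difference of the 10 was -0.29, and -0.03 against the UT cells matched on M.

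Outside the score, CCNB2 was at 350, 530, 320 and 444 CPM after scaling (log2 -0.20 ± 0.25, edgeR adjusted p = 0.827) and CDC25C, the phosphatase that activates CDK1, at 24.5, 45.0, 18.8 and 33.9 CPM (-0.36, 0.792). The groups overlapped in both. CDC20, which activates the anaphase-promoting complex, was at 337, 488, 219 and 398 CPM (-0.41, 0.656), and WEE1, the kinase that holds CDK1 inactive, at 147, 126, 127 and 95.1 CPM (-0.31, 0.676). FOXM1, the transcription factor of late cell cycle genes, was at 295.5, 260.1, 218 and 186 CPM (-0.46 ± 0.20, 0.424). With the experiment as a block CDC20 (0.0404) and FOXM1 (0.0484) passed, and CCNB2, CDC25C and WEE1 did not.

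Among 28 regulators of the G2 to M switch none was called in either direction by edgeR or DESeq2, and 4 were lower at an unadjusted p under 0.05. Their median log2 difference was -0.19, and 17 were lower in both experiments (60.7%, against 31.7% of all genes tested). With the block 3 fell, FOXM1, CCNA2 and NEK2. NEK2, a centrosome kinase, was at 159, 155, 99.6 and 91.9 CPM (-0.72, edgeR adjusted p = 0.193 without and 0.00991 with the block). CCNA2, cyclin A2, was at 276, 425, 242 and 242 CPM (-0.53, block 0.0314). Of 33 mitotic kinesins and spindle proteins 23 were lower in both experiments and none higher in both (median -0.30). None was called by edgeR or DESeq2, 3 were lower at an unadjusted p under 0.05 and 2 fell with the block, STMN1, a microtubule destabilizer (log2 -0.59), and ASPM (377, 434, 273 and 249 CPM, -0.64, block 0.00346).

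Kinetochore, cohesion and checkpoint genes behaved similarly. Of 35 tested, none was called by edgeR or DESeq2, 8 were lower and none higher at an unadjusted p under 0.05, and 22 were lower in both experiments (median -0.24). With the block 6 fell, among them KNL1, the kinetochore scaffold (-0.66), and CENPM, a centromere protein (-0.85). Of 19 genes of the anaphase-promoting complex and mitotic exit none was called by either tool, with 1 higher and 1 lower at an unadjusted p under 0.05, 2 lower with the block and a median of -0.28. Of 17 nuclear envelope and HMGB genes none was called by either tool, 3 were lower at an unadjusted p under 0.05 and 4 fell with the block (median -0.26). These lists share their genes' tie to the M score, which was itself lower in IR members, and the part of that in their medians was not tested beyond the matched cells, where they were -0.16, -0.19, -0.09, -0.15 and -0.28 in the order given.

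Checkpoint and repair genes stood near or below UT levels. Of 51 tested, none was called by edgeR or DESeq2 and 5 were lower and none higher at an unadjusted p under 0.05 (median log2 difference -0.17). TP53BP1, whose protein gathers at double-strand breaks, was at 95.2, 77.0, 90.9 and 96.2 CPM (0.12 ± 0.22, edgeR adjusted p = 0.889). CHEK1, the kinase of the replication and G2 checkpoint, was at 51.8, 48.0, 36.1 and 38.3 CPM (-0.42, 0.611). CHEK2, the kinase downstream of ATM, was at 23.8, 28.3, 7.21 and 10.9 CPM, and the end-joining gene XRCC5 at 584, 500, 382 and 327 CPM. Neither passed (0.173 and 0.261), and both were among the 4 that fell with the block (0.0231 and 0.00201). Of 47 replication genes outside the S score none was called by either tool, 1 was higher and 2 were lower at an unadjusted p under 0.05, and the median was -0.11. DUT, the dUTPase, was at 355, 464, 235 and 239.5 CPM (-0.79, 0.171, block 0.000532).

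Lists of secreted, lysosomal, inflammatory and matrix genes had medians above 0. Of 27 senescence-associated secreted factors tested, GDF15 and IGFBP7 rose, none fell, and 21 were higher in both experiments (77.8%, median 0.65). IGFBP7, an insulin-like growth factor binding protein, was at 52.5, 66.8, 152 and 154 CPM (2.56-fold, edgeR adjusted p = 0.0380). It missed the threshold at the 80th percentile of M (0.15), against UT cells matched on M (log2 0.97, 0.50) and with membership from thinned cells (0.0532). With the block 13 rose and 1 fell, IGFBP5, at 274, 280.5, 120 and 164 CPM (log2 -0.96, 0.120, block 0.000273). Of 28 lysosomal genes none was called by edgeR and 1 was higher by DESeq2, 10 were higher at an unadjusted p under 0.05, 23 were higher in both experiments (82.1%) and 10 rose with the block (median 0.50). CTSB, cathepsin B, was at 218, 226, 467.5 and 414 CPM (0.99 ± 0.19, 0.0722, block 2.16e-05).

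Of 22 interferon-stimulated genes none was called by edgeR and 1 was higher by DESeq2, 7 were higher at an unadjusted p under 0.05 and 4 rose with the block (median 0.63). IFIT3, an antiviral effector, was at 3.50, 6.54, 18.8 and 51.4 CPM (2.83, 0.0722, block 0.000111). Of 24 NF-kB and immediate early genes BIRC3 rose and none fell (7 and 0 with the block, median 0.34). FOSL1, an AP-1 subunit, was at 104, 92.3, 234 and 183 CPM (1.08, 0.0760, block 8.93e-05). Of 23 genes of apoptosis and survival FAS and BIRC3 rose and none fell (7 and 2 with the block, median 0.35). Of 30 matrix, contractile and YAP target genes ITGA2, an integrin collagen receptor chain, rose from 60.2 and 66.1 to 154 and 145 CPM (2.37-fold, edgeR adjusted p = 0.0445, 0.0552 without IR experiment 1), with 4 other settings ending the call (0.0553 to 0.142) and 12 rising and 2 falling with the block (median 0.38).

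Of 25 CDK inhibitors, RB family members and D and E cyclins CDKN1A rose and none fell (4 and 1 with the block, median 0.07). CCND3, cyclin D3, was at 9.80, 11.6, 36.1 and 29.5 CPM (1.60, 0.112, block 0.00751). Of 23 cholesterol synthesis genes none was called by either tool, 1 was higher at an unadjusted p under 0.05 and 1 with the block, HMGCS1 (0.81, 0.140, block 0.000207), with a median of 0.22. Only EPCAM of the markers of other cell types passed the filter on low counts, with 10, 15, 7 and 19 counts (log2 difference 0.83, edgeR adjusted p = 0.586).

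**Figure D4:**
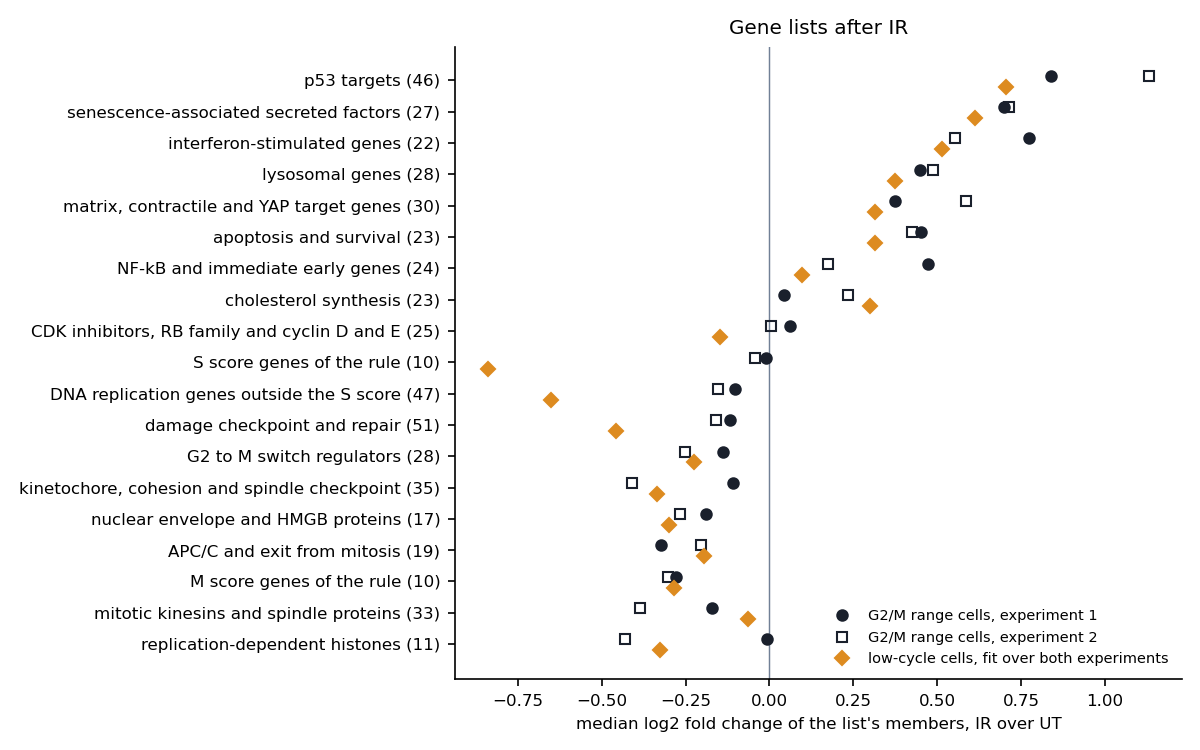
Median log2 difference between IR and UT over the tested members of each gene list with at least 10, as circles and squares for members in experiments 1 and 2 and diamonds for low-cycle cells over both experiments, with the number tested in G2/M range cells in brackets. p53 targets lie furthest right (1.02 over both experiments), mitotic lists left of 0, and replication genes near 0 in members against -0.65 in low-cycle cells.

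A second test asked whether the response to IR itself differed between members and low-cycle cells of the same libraries. The difference of the log2 effects was fitted in edgeR over 8 sums with the library as a block and 2 residual degrees of freedom, for 12601 genes. In members the effect was higher for 6 genes (0.0476% of those tested) and lower for 2 (0.0159%) at an adjusted p under 0.05. The 6 were CXCL14, BIRC3, THBS1, E2F1, MCM3 and CDKN1A, and the 2 were IFIT1 and HSPA1A. Of these, only BIRC3 and CDKN1A were also called in the main comparison.

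CDKN1A was higher after IR in both classes. It was at 197, 124, 638 and 568 CPM in members and at 538, 440, 1060 and 1024 CPM in low-cycle cells. Levels of members stayed below those of low-cycle cells in every library while the log2 effect was larger, at 1.90 against 1.09 (difference 0.82 ± 0.13, edgeR adjusted p = 0.00412). The mean per cell was 3.25, 2.26, 16.4 and 18.0 in members and 7.56, 6.83, 24.5 and 24.1 in low-cycle cells, so the latter lay nearer the count ceiling, and its part in the difference was not tested. Without UT experiment 2 the difference was 0.65 (edgeR adjusted p = 0.301), with equal cells per library 0.52 (0.939), and against S range cells, which have a high S and a low M score, 0.28 (0.715). It also missed the threshold at the 80th percentile of M (0.60, 0.0880) and against all other cells (0.48, 0.0571). Over all 46 p53 targets the median effect was 1.02 in members and 0.71 in low-cycle cells, and CDKN1A was the only one called.

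MCM3 (chr6:52264014-52284881), a subunit of the replicative helicase, was at 110, 109, 108 and 105 CPM in members and at 125, 106, 51.9 and 58.6 CPM in low-cycle cells. It was level across libraries in members and lower in both IR libraries in low-cycle cells (log2 effect -0.04 against -1.06, difference 1.01 ± 0.19, edgeR adjusted p = 0.0303). E2F1 (chr20:33675477-33686385), the activator of replication genes, was at 37.7, 28.2, 37.4 and 36.9 CPM in members and at 51.9, 36.1, 17.1 and 15.9 CPM in low-cycle cells (0.17 against -1.41, difference 1.59 ± 0.31, edgeR adjusted p = 0.0357). Both promoters hold an E2F-type site in the windows printed above, and they are among the 14 of 39 replication genes with such a site. Whether the sites bear on these differences was not tested. Of the 48 replication genes tested here these 2 were called and none was lower, and the median effect was -0.10 in members and -0.65 in low-cycle cells. IR low-cycle cells also had the lower M scores given above, and the part of that in these differences was not tested. Against S range cells the differences were 0.31 for MCM3 (0.720) and 0.68 for E2F1 (0.539), and with equal cells per library 0.91 and 1.46 (0.294 each). MCM3 also missed the threshold without UT experiment 1 (0.173), and E2F1 without UT experiment 1 (0.0842) or IR experiment 2 (0.0771).

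CXCL14 (chr5:135570679-135579279), a chemokine, had fitted effects of opposite sign in the classes. It was at 94.9, 55.7, 153 and 169 CPM in members and at 221, 127, 50.7 and 70.6 CPM in low-cycle cells (1.096 against -1.52, difference 2.61 ± 0.18, edgeR adjusted p = 1.74e-09). The effect in members alone was not called in the main comparison (edgeR adjusted p = 0.138), and it was -0.26 with membership from thinned cells. Only 10 and 7 IR members had a CXCL14 count, and the 2 highest of them held 77.5% and 93.0% of the sum. With membership from thinned cells the difference was 0.94 (0.942), and with the 80th percentile of M it was 2.29 (0.695). BIRC3, also concentrated in few members, was at 10.5, 10.1, 82.1 and 64.1 CPM against 51.0, 24.0, 22.3 and 24.8 CPM in low-cycle cells (difference 3.46 ± 0.35, edgeR adjusted p = 2.13e-06). Its difference was 3.39 at the 80th percentile of M (0.195) and 1.62 against S range cells (0.213). In low-cycle cells of UT experiment 1 a single cell held 45.4% of the BIRC3 counts. A BIRC3 count was found in 13.5% and 16.4% of UT and in 17.5% and 27.3% of IR low-cycle cells.

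THBS1 (chr15:39581079-39599466), the matrix glycoprotein thrombospondin, was at 129, 137, 219 and 289 CPM in members and at 157, 234, 157 and 165 CPM in low-cycle cells (difference 1.20 ± 0.17, edgeR adjusted p = 0.000662). The effect in members alone was not called in the main comparison (edgeR adjusted p = 0.120). Single IR members held 46.3 and 84.9 THBS1 counts in experiments 1 and 2. The first of these cells also had the highest CXCL14 count, and the second the highest KRTAP2-3 count. In experiment 2 the highest CXCL14 count was in the largest IR member, of 101583 counts. HSPA1A (chr6:31815543-31817946), an inducible HSP70 gene with a near-identical neighbouring copy, was at 144, 227, 66.2 and 101 CPM in members and at 51.0, 59.1, 48.2 and 76.7 CPM in low-cycle cells (difference -1.32 ± 0.20, edgeR adjusted p = 0.00249, 0.0716 without UT experiment 2 and 0.0504 with equal cells). IFIT1 (chr10:89392546-89406487), an interferon-stimulated RNA-binding protein, was at 18.1, 28.2, 33.1 and 32.6 CPM in members and at 11.5, 16.8, 62.7 and 112 CPM in low-cycle cells (difference -2.14 ± 0.35, edgeR adjusted p = 0.00472), and the difference against S range cells was -1.38 (0.313). Leaving out the highest cells of each gene dropped 1 cell per gene from each IR member sum. The second highest CXCL14 and BIRC3 cells stayed in, so whether the calls of these genes rest on few cells was not tested by it. In that setting IFIT1 (0.124) and E2F1 (0.0521) missed the threshold, and the other 6 kept their calls. The third gene by p on the lower side, the long non-coding AL161431.1, missed it at a difference of -0.64 (0.0702), and passed with the block (0.0035) and without IR experiment 1 (0.00135).

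**Figure D5:**
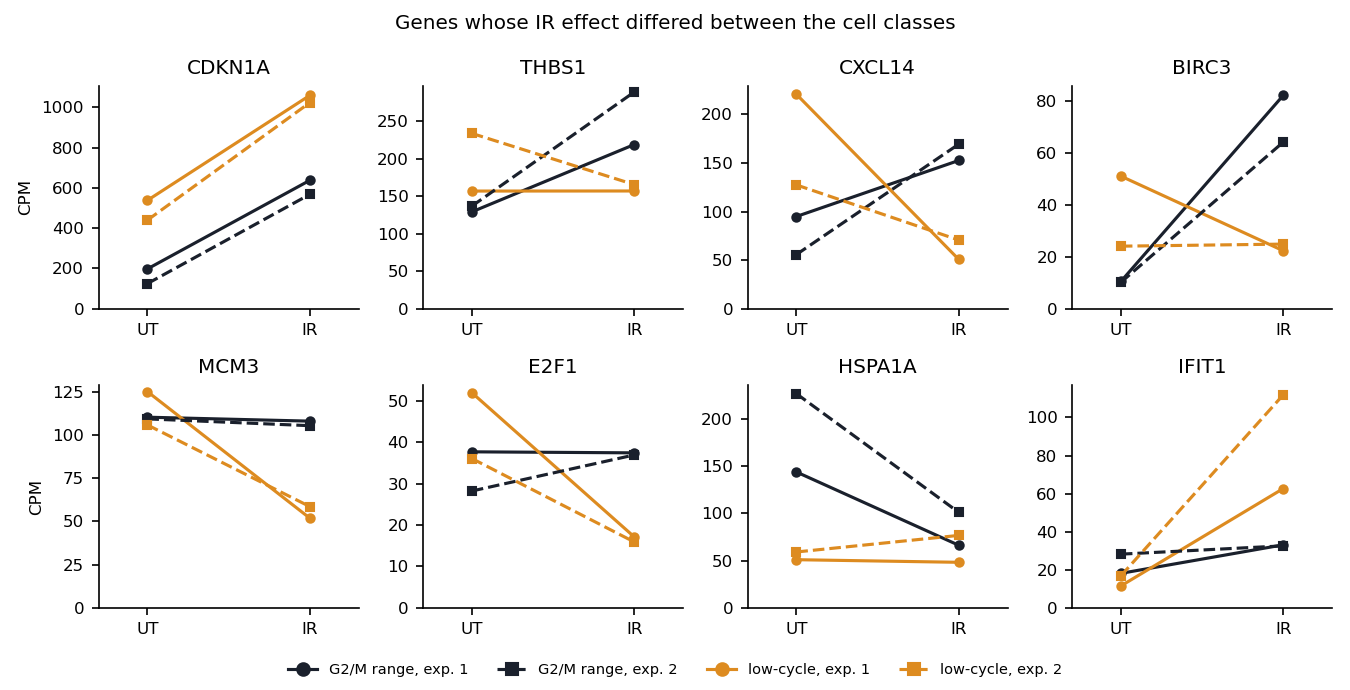
Level in CPM of the genes whose IR effect differed between the classes, with UT and IR on the horizontal axis, black lines for G2/M range cells, orange lines for low-cycle cells and 1 line per experiment. For CXCL14 and BIRC3 black lines rise while orange lines fall or stay, and for MCM3 and E2F1 the orange lines fall to 58.6 CPM or less and to 17.1 CPM or less, while both black lines end at 105 CPM or above and at 36.9 CPM or above.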

How the data were processed

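Per the paper's methods and the labels, reads were mapped to GRCh38 by STARsolo without intronic or multi-gene reads and with no UMI cut-off, and submitters' notes name Seurat 5. The sources used here do not give strand, barcode filter or UMI merging. The deposited values are expected counts, which the authors corrected for UMI collisions (99.9% of values in each library lay on the curve for 4096 possible UMIs). Plain counts had been assumed, so sums were rounded. The matrices list 36601 genes. Spike-ins (0.191% to 1.21% of counts) were left out. Sums were tested in edgeR 4.0.16 (R 4.3.3; TMM, filterByExpr, robust quasi-likelihood, adjusted p under 0.05), with DESeq2 1.42.0 as an alternative. Experiment numbers in the titles pair libraries (deviations correlated at 0.359 over 10745 genes, and edgeR's biological coefficient of variation fell from 0.168 to 0.0887 when the block was added). The spread behind each p-value of the member comparison without the block is that between libraries, which may be technical. In the test of the difference the library is a block. Its p-values rest on how the difference between classes varied across libraries (biological coefficient of variation 0.0538).

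The members and gene lists were chosen with earlier results of these data known. Named genes were 13 fixed p53, checkpoint and mitotic genes, the 10 largest called changes in each direction at a mean of at least 20 CPM, up to 4 per list by p, and called differences between classes. Further genes are said to be outside the rule where named. Both fits were tested on simulated data with known changes. The member comparison recovered 31.9% of 2-fold and 81.9% of 4-fold changes, and the test of the difference 40.8% and 77.6%. A gene or list without a call can thus still have changed 2-fold. A listed marker is not reported here. Positions are from GENCODE release 44.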

Additional observations from a re-analysis of the deposited data

Results flagged for a closer look

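For 8 genes the response to IR differed between G2/M range and low-cycle cells by the test of the difference itself (edgeR, 2 experiments, adjusted p under 0.05). The log2 difference was positive for BIRC3 (3.46), CXCL14 (2.61), E2F1 (1.59), THBS1 (1.20), MCM3 (1.01) and CDKN1A (0.82), and negative for IFIT1 (-2.14) and HSPA1A (-1.32). In DESeq2, CXCL14, BIRC3, THBS1 and CDKN1A passed, and MCM3, E2F1, HSPA1A and IFIT1 did not.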

How the results depend on the processing

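The member comparison (24 genes higher, 13 lower) gave 54 higher at the 60th percentile of M, 42 with DESeq2, 216 higher and 98 lower with no filter on low counts, and 436 and 286 with the replicate block. It gave 12 higher with equal cells and 8 with UT cells matched on M, and 5 lower with scores from thinned cells, 5 without genes near the count ceiling (which leaves out the mitochondrial genes) and 8 with the highest cells of each gene left out. Leaving out 1 library gave 42 to 108 higher and 11 to 39 lower.

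The test of the difference (6 higher, 2 lower) gave 36 and 14 at the 60th percentile, 10 and 4 at the 80th, 15 and 20 against S range cells, 75 and 16 against all other cells, 27 and 12 with no filter, 30 and 13 with the replicate block, and 33 and 12 with scores from thinned cells. With the highest cells left out 17 were higher, with equal cells 5 were lower, and with DESeq2 0 were lower (92 genes at an unadjusted p under 0.05 in either direction, against 933 in edgeR). Leaving out 1 library gave 8 to 41 higher and 2 to 48 lower.

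Shares of members became 31.0%, 15.8% and 17.3% in UT1, IR1 and IR2 at the 60th percentile, 18.7%, 14.7% and 6.88% in UT1, UT2 and IR1 at the 80th, and 38.5%, 38.7%, 16.6% and 18.1% with no limit on S, where the digit is the experiment.

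The sign of the log2 difference turned, in no case with a call, for TP53BP1 (-0.23 with equal cells, -0.042 to 0.27 when 1 library was left out, negative without UT replicate 2), CCNB2 (-0.48 to 0.11 when 1 was left out, with 0.012 without IR replicate 1 and 0.11 without UT replicate 2), CDC25C (-0.88 to 0.12 likewise, positive without UT replicate 2), UBE2C (-0.077 to 0.41 likewise, negative without IR replicate 2 or UT replicate 1), CCNB1 (0.019 at the 80th percentile, 0.11 matched on M), MCM3 (0.19 and 0.10 in the same settings), CXCL14 (-0.26 with thinned scores), E2F1 (-0.0034 at the 60th percentile, -0.035 with the highest cells left out, -0.15 with thinned scores, -0.037 to 0.39 when 1 library was left out, negative without UT replicate 2) and IFIT1 (-0.037 with the highest cells left out). Other causes were not tested.

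Over 65 named genes, leaving out 1 library kept direction and call for 234 of 260 values, with 4 calls lost, 15 gained and 7 signs turned. Other alternatives kept 716 of 824, with 48 lost, 50 gained and 10 turned. For 9 genes of the difference test, 30 of 36 and 98 of 125 were kept and no sign turned. The lone library of a group was assumed to vary like the other group. Precision is limited by 2 libraries per group and by 27 and 29 IR members.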
